A study of Mus musculus with 5 samples.

Results

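Cytosolic ribosomal protein genes were followed in haematopoietic stem cells (HSCs) of the mouse. They were taken from the expression table by symbol: Rpl or Rps followed by a digit, or Rplp0, Rplp1, Rplp2 or Rpsa, without S6 kinase genes and pseudogene symbols. This gave 73 of 11643 genes. Of these, 29 encode small subunit proteins, 35 large subunit proteins and 3 the P stalk, 5 are variant paralogs (Rpl22l1, Rpl36al, Rpl7l1, Rps27l and Rps4l), and 1, Rps19bp1, shares the symbol but encodes a binding partner of RPS19. All 73 had a mean of at least 1 FPKM (fragments per kilobase of transcript, scaled to library size) and were among the 10570 genes tested. In 68 members every library had a value above 0. The other 5 are listed at 0 in 1 or more libraries, and Rpl41, Rpl32 and Rpl12 of them are given apart. Rps27, Rps27a, Rpl3, Rpl7, Rpl13a, Rpl18, Rpl26, Rpl30, Rpl34 and Rpl35a were not analysed here.

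The cells were sorted from C57BL/6 bone marrow as Lin-cKit+Sca1+ CD150+CD48- cells. There were 3 libraries from control mice, whose alleles the labels do not state beyond bracketed names that begin with VavC. The other 2 came from mice labelled Tle1/3/4-deficient, which carried floxed Tle1, Tle3 and Tle4 and the Vav-Cre recombinase, active throughout blood cells and not only in HSCs. They are called mutant-labelled below. TLE proteins are co-repressors recruited by DNA-binding factors, and the comparison asked what their combined loss does to HSC gene expression. Age and sex of the mice, and whether replicates were separate animals, are not given, so p-values measure the spread between these libraries only.

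A cytosolic ribosome carries one copy of most of these proteins, and their mRNAs are among the most abundant of any cell. The mRNAs begin with a terminal oligopyrimidine tract, a run of C and U through which mTOR signalling and LARP1 set their translation together. HSCs keep protein synthesis low, and inherited defects of single ribosomal proteins cause Diamond-Blackfan anaemia, a failure of red cell production.

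Because these genes are known for a shared start region, RefSeq windows (build GRCm38.p6, 250 bases before to 50 after the annotated start) were read for the 56 members that had one. Of 20 motifs searched, each on both strands, those given here were picked after their shares were seen, as was the run length. The ETS core CGGAAG stood in the windows of 40 members (71.4%), against 37.0% of 8102 other tested genes and 16.9% of all 32851 windows. The pyrimidine word CTCTTTC, whose matches can share at most 1 letter with an ETS core, stood in 26.8% of members, 8.52% of other tested genes and 8.16% of all windows. In the 50 bases on each side of the start, the longest run of C and T had a median of 10 bases in members and 6 in other tested genes. Runs of 10 or more were present in 69.6% of members and 19.3% of the others. The E box CACGTG (7.14% against 12.2% of other tested genes and 7.15% of all windows) and the CCAAT box (33.9% against 43.1% and 37.4%) were less frequent in members than in other tested genes. These matches describe letters and not bound sites. Of these windows, the stretches from 90 bases before to 30 after the start are shown for 4 members below every control in both mutant-labelled libraries, and last for Rps27l and Rpl7l1, which were nearer to the controls in replicate 2, all picked after their values were seen. Capitals mark each ETS core and each run of 9 or more pyrimidines.
Rps28 (chr17:33824533-33824652, minus strand): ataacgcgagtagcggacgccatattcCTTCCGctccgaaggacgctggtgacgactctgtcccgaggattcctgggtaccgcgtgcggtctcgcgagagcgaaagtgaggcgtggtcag
Rpl37a (chr1:72711170-72711289, plus strand): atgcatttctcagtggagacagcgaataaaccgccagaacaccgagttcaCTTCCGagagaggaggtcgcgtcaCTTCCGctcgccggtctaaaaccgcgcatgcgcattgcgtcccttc
Rpl4 (chr9:64173297-64173416, plus strand): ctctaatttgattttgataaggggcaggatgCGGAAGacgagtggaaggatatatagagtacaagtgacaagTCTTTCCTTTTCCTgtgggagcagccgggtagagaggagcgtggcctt
Rpl28 (chr7:4792875-4792994, plus strand): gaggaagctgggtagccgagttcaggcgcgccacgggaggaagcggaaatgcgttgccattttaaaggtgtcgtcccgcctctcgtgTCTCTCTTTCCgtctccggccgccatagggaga
Rps27l (chr9:66945996-66946115, plus strand): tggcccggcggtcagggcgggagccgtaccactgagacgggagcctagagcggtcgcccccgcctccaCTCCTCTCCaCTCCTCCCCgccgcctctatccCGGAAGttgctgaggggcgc
Rpl7l1 (chr17:46782627-46782746, minus strand): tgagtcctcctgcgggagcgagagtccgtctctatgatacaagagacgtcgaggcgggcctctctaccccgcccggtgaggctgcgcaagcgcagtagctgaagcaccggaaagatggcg

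Rps28 and Rpl37a carried 1 and 2 ETS cores in these windows and no marked pyrimidine run, Rpl4 carried 1 core and a run of 14, and Rpl28 a run of 11. Rps27l carried 1 core and 2 runs of 9, and Rpl7l1 neither. Across members, medians differed little with the start sequence. In mutant-labelled replicate 2 the median log2 ratio to the controls was -0.69 in 38 members with the ETS core and -0.65 in 16 without it. It was -0.74 in 38 members with a run of 10 or more and -0.58 in 16 with shorter runs. These medians are descriptions without a test.

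The libraries also differed outside these genes. FPKM columns summed to 599137 to 683822, and total reads are unknown. Tle3 was at 2.48 to 5.61 FPKM in controls, against 32.3 and 31.6 FPKM in the mutant-labelled libraries. Tle3 was thus higher, not lower, under the label of deficiency. The values are per gene and not per exon, so they do not show whether the floxed parts were removed. Every direction here rests on the labels. Tle4 was at 0.353 and 0.203 FPKM in the mutant-labelled libraries, where controls had 5.67, 0.0129 and 5.29 FPKM. Tle1 was at 1.83, 0.811 and 3.33 FPKM in the controls, with 2.84 and 4.37 FPKM in the mutant-labelled ones. Of the gate's genes, Ly6a (Sca-1) was at 14.0 FPKM and Cd48 at 23.4 FPKM in mutant-labelled replicate 2, below and above every control. Kit, at 149 to 185 FPKM in controls, was at 102 FPKM in both mutant-labelled libraries, and Slamf1 (CD150), at 14.9 to 24.0 FPKM, was at 31.8 and 31.0 FPKM. The 14 granulocyte and precursor markers summed to 564 to 3046 FPKM in controls, 11255 FPKM in mutant-labelled replicate 1 and 67422 FPKM in replicate 2. Of these markers, 10 were above every control in both, against 10.2% of all genes. Among the 14 only Ly86 was at 0, in control replicates 1 and 2. The 12 megakaryocyte and platelet markers summed to 869 to 1695 FPKM in controls, against 9095 and 4342 FPKM in the mutant-labelled libraries, 7 of them above every control in both, with Selp and Tubb1 at 0 in control replicate 2. The 8 erythroid markers with a row summed to 829 to 1103 FPKM in controls, against 1012 and 1625 FPKM in the mutant-labelled libraries, 4 of them above every control in both, Ermap being at 0 in control replicates 1 and 2 and Alas2 in control replicate 1. The 5 lymphoid markers with a row summed to 85.1 to 154 FPKM in controls, against 362 and 312 FPKM, 1 of them above every control in both. The counts of the other lists also stand beside the 10.2% of all genes, and 1 of 5 is too few to read against that share. Cd79a was at 0 in control replicate 1 and mutant-labelled replicate 1, and Cd4 in control replicate 2 and mutant-labelled replicate 1. The part of these cell types in the results below was not tested. Shares without the granulocyte genes are given below as a description.

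Ribosomal protein genes made up a large share of the measured transcriptome. The 68 members with no value of 0 held 20.997%, 23.6% and 24.996% of the FPKM sum in control replicates 1, 2 and 3. They held 20.5% in mutant-labelled replicate 1 and 13.6% in replicate 2. Replicate 1 lay just below the lowest control, and replicate 2 lay far below all other libraries. Leaving the 14 granulocyte genes, which took 11.3% of the sum in replicate 2, out of the total gave 21.02%, 23.8% and 25.1% in the controls, 20.9% in mutant-labelled replicate 1 and 15.4% in replicate 2. The low share in replicate 2 was thus still present without those genes. This leaves out the 14 genes only and not the other RNA of cells that express them, so the part of such cells was not tested. In bulk RNA, fewer cells of a type and less RNA per cell cannot be told apart.

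**Figure D1:**
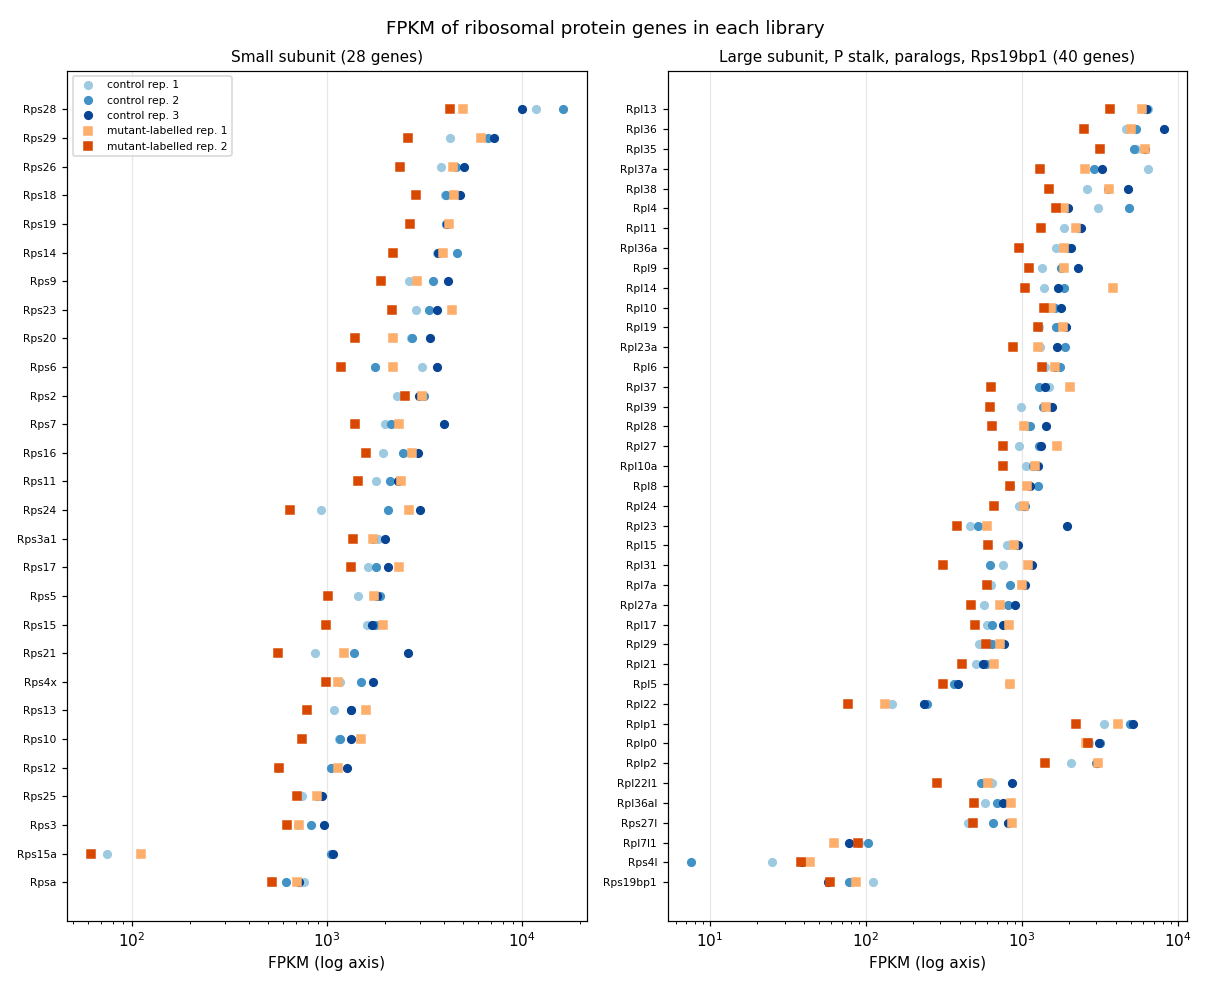
FPKM on a log axis for the 68 ribosomal protein genes with no value of 0, 1 row per gene, with circles for the 3 control libraries and squares for the 2 mutant-labelled libraries. Mutant-labelled replicate 2 is the leftmost point in 60 of the 68 rows (88.2%, against 25.6% of all genes).

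Levels differed widely between members although FPKM is per length. Over the 62 subunit and stalk genes with no value of 0, control means had a median of 1678 FPKM, with quartiles of 1031 and 2982 FPKM. Rps28 was highest, at 12731 FPKM, and Rpl22 lowest, at 210 FPKM, a 60.7-fold range. After Rps28, the most abundant of the members with no value of 0, by the mean over all 5 libraries, were Rpl13, Rps29, Rpl35, Rpl36, Rps26, Rps18, Rplp1, Rps19 and Rps14. The order of members was much alike in all libraries, with Spearman correlations across the 68 genes of 0.895 to 0.952 for the 10 pairs of libraries. These points share libraries and gene lengths and are not independent. Within the controls, the SD of log2(FPKM + 1) had a median of 0.25 over members, 0.53 over all genes tested and 0.16 over 106 other genes at a mean of 500 FPKM or more. Members therefore varied less between controls than the typical gene and more than other abundant genes. Ribosomal protein genes have many near-identical processed pseudogenes, and how reads matching several places were counted is not given in the sources used here, so each level is uncertain in that respect.

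No member passed the test across all genes (limma, adjusted p under 0.05), where 2 of 10570 genes did (0.0189%). In the same limma fit, 4 members and 8.45% of all genes had an unadjusted p under 0.05. By direction, 4 of 68 members (5.88%) were lower in the mutant-labelled libraries, against 5.18% of all genes, and 0 were higher, against 3.26%. In 11 members (16.2%) both mutant-labelled libraries were below every control, against 15.9% of all genes, and in 0 were both above, against 10.2%. The shares of lower members are close to those of all genes. The sign was more one-sided: 62 of 68 log2 fold changes (91.2%) were negative, against 55.7% of all genes. The median was -0.29, against -0.10 over all genes tested (log2(FPKM + 1) scale, mutant-labelled minus control). Median-of-ratios scaling moved the median of all genes to 0.014 and that of the members to -0.17, so relative to all genes the members stood at -0.19 as deposited and at -0.18 after scaling. With that scaling 6 members were lower without overlap and 1 higher, against 12.5% and 13.6% of all genes. Without control replicate 1 the groups did not overlap in 28 members, all lower, against 23.0% of all genes that were lower.

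The 2 mutant-labelled libraries contributed unequally to that median. Per library, the median log2 ratio of the 68 members to the mean log2 FPKM of the 3 controls was 0.037 in mutant-labelled replicate 1 and -0.66 in replicate 2, a 0.631-fold level. Each control set against the other 2 gave medians of -0.29, 0.065 and 0.25 for replicates 1, 2 and 3. Replicate 1 thus lay within the range of the controls and replicate 2 outside it. Among 106 other genes at a mean of 500 FPKM or more, the medians in the mutant-labelled libraries were 0.24 and -0.28. Mutant-labelled replicate 2 was below every control in 61 of 68 members (89.7%), against 33.4% of all genes, and above every control in 0, against 21.6%. Mutant-labelled replicate 1 was below every control in 12 members (17.6%, against 28.6% of all genes) and above every control in 18 (26.5%, against 26.5%). Leaving out 1 mutant-labelled library sets the other alone against the same controls. The medians and non-overlap counts that follow therefore repeat the values per library and are no further evidence. Without replicate 2 the median of the members was 0.037 and without replicate 1 it was -0.66. Without replicate 2 the groups did not overlap in 12 members that were lower and 18 that were higher, against 28.8% and 26.7% of all genes. Without replicate 1 they did not overlap in 61 lower and 0 higher members, against 33.5% and 21.6%. Members at an unadjusted p under 0.05 numbered 31 without replicate 1, where 10.4% of all genes did so, and 2 without replicate 2, where 9.05% did (limma). Replicate 2 was also the library with the highest granulocyte sum and the lowest Ly6a, whose part in this was not tested.

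**Figure D2:**
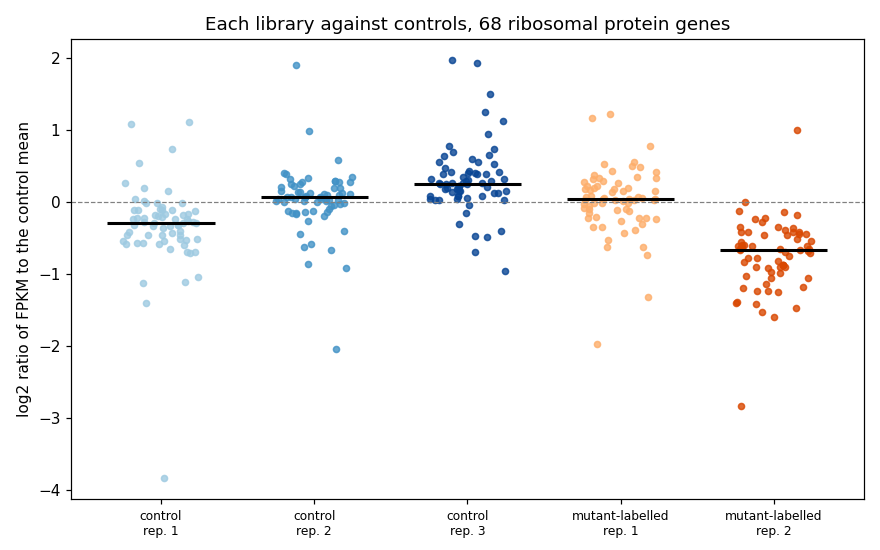
Log2 ratio of FPKM in each library to the mean log2 FPKM of the controls (a control library is set against the other 2), with 1 point for each of the 68 ribosomal protein genes and a bar at the median. The median is -0.66 in mutant-labelled replicate 2 and lies between -0.29 and 0.25 in the other 4 libraries.

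The 2 mutant-labelled libraries differed from each other in nearly every member. The level in replicate 2 was below that in replicate 1 in 66 of 68 members, with a median ratio of 0.597. The ratio was lowest for Rps24, a small subunit protein mutated in Diamond-Blackfan anaemia, which was at 2640 and 647 FPKM in replicates 1 and 2 and at 937, 2054 and 3011 FPKM in the controls. Rpl14 was at 3814 and 1045 FPKM, above and below every control (1390, 1863 and 1709 FPKM). Rpl31, at the exit of the peptide tunnel, was at 1099 and 311 FPKM, against 751, 624 and 1168 FPKM in the controls. Only Rplp0 (2570 and 2647 FPKM) and Rpl7l1 (62.2 and 89.4 FPKM) were higher in replicate 2 than in replicate 1.

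How low a member stood in mutant-labelled replicate 2 went with its coding length, a relation and a split at 450 bases that were chosen after the values were seen. Across the 67 members with a coding length in the GENCODE annotation, the Spearman correlation between length and the log2 ratio to the controls was 0.606 in replicate 2 and -0.041 in replicate 1. In replicate 2 the median ratio was 0.507-fold in the 32 members with a coding length under 450 bases and 0.662-fold in the 35 longer ones. The ratio was below 0.5-fold in 15 of the 32 short members and in 1 of the 35 long ones, Rps6. The proportions of members below every control were nevertheless similar, 29 of 32 and 32 of 35. The controls showed weaker relations, with correlations of 0.276, 0.021 and -0.334 for replicates 1, 2 and 3 against the other 2. Among 5500 other genes at 5 FPKM or more in every library the correlation in mutant-labelled replicate 2 was 0.025. Among 356 of them at a mean of 200 FPKM or more, the correlation in mutant-labelled replicate 2 was 0.224, with a median ratio of 0.729-fold in 129 short and 0.889-fold in 227 long genes. For these 356 genes it was -0.186 in mutant-labelled replicate 1 and 0.113, 0.093 and -0.255 in control replicates 1, 2 and 3, so correlations of that size stood in other libraries too. These correlations run across genes that share a library and are given without a test, and the part of length in the low levels was not tested.

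**Figure D3:**
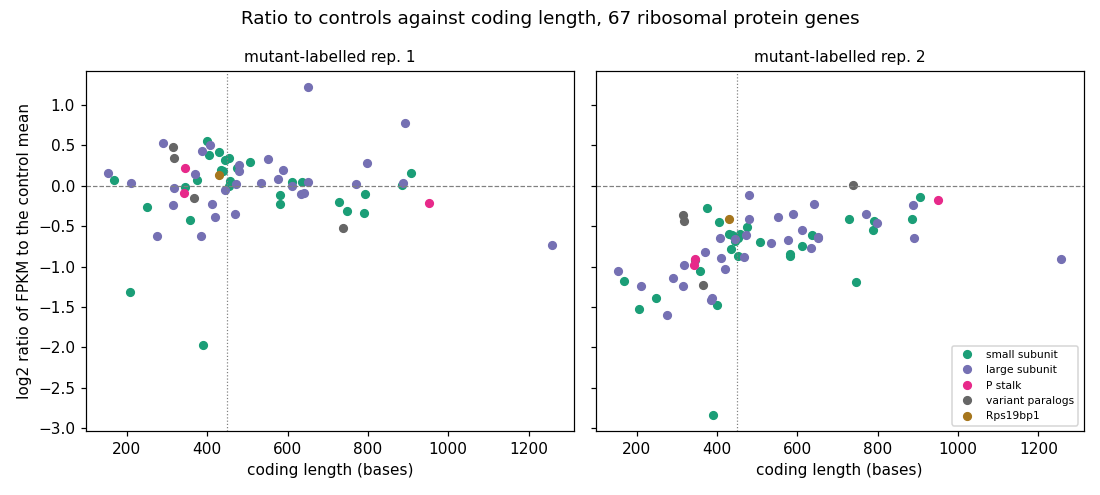
Log2 ratio of FPKM to the mean log2 FPKM of the controls against coding length in bases, for 67 ribosomal protein genes in mutant-labelled replicates 1 (left) and 2 (right), coloured by role, with a dotted line at 450 bases. In replicate 2 the shorter genes lie lower (Spearman 0.606), and in replicate 1 they do not (-0.041).

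Of the 29 small subunit genes, 28 had no value of 0. Of these 28, 27 had a negative log2 fold change (median -0.30), as did 62 of the 68 members and 55.7% of all genes. Rps28, a protein near the channel where mRNA leaves the ribosome, was at 11848, 16341 and 10004 FPKM in the controls, with 5020 and 4315 FPKM in the mutant-labelled libraries. The groups did not overlap, and unlike most members Rps28 was low in both mutant-labelled libraries. Its log2 fold change was -1.42 (SE 0.35), and it did not pass over all genes (limma, unadjusted p = 0.00411, adjusted p = 0.433, and 0.167 to 0.728 over the alternatives). Leaving out each library in turn gave -1.58 to -1.23.

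Rps20, a protein of the subunit head, was at 2714, 2740 and 3373 FPKM in the controls, against 2182 and 1405 FPKM in the mutant-labelled libraries. All controls were above both, with a log2 fold change of -0.74 (SE 0.31, limma, unadjusted p = 0.0443, adjusted p = 0.577). Rps4x, encoded on the X chromosome, was at 1177, 1501 and 1731 FPKM against 1144 and 990 FPKM. Rps3a1 was at 1837, 1723 and 1984 FPKM against 1720 and 1360 FPKM. In both genes the groups did not overlap, but mutant-labelled replicate 1 lay just below the lowest control. Their log2 fold changes of -0.45 and -0.27 did not pass (limma, adjusted p = 0.69 and 0.798).

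Other abundant small subunit genes were low in mutant-labelled replicate 2 alone. Rps29 was at 4305, 6728 and 7185 FPKM in the controls, 6196 FPKM in mutant-labelled replicate 1 and 2622 FPKM in replicate 2. Rps26, which contacts mRNA at the exit channel, was at 3864, 4627 and 5058 FPKM, against 4450 and 2379 FPKM. Rps18 was at 4066, 4087 and 4851 FPKM, against 4495 and 2861 FPKM. In all 3 genes replicate 1 lay inside the range of the controls and replicate 2 below it. Without replicate 2 the log2 fold changes of Rps29 and Rps18 were 0.064 and 0.057. Of the 7 genes lining mRNA entry and exit, 6 had a negative log2 fold change (median -0.44), against 55.7% of all genes.

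The anaemia genes were also lowest in mutant-labelled replicate 2. Rps19, the gene most often mutated in Diamond-Blackfan anaemia, was the steadiest of the subunit genes in controls, at 4073, 4071 and 4162 FPKM. It was at 4247 and 2683 FPKM in mutant-labelled replicates 1 and 2, above and below all controls (log2 fold change -0.28, SE 0.31, limma, adjusted p = 0.823, and a log2 fold change of 0.0502 without replicate 2). Rps14, whose loss underlies the anaemia of 5q- syndrome, was at 3669, 4661 and 3733 FPKM in controls, with 3968 and 2189 FPKM. Of the 19 Diamond-Blackfan genes listed, 15 had a row. Of the 15, 14 had a negative log2 fold change (median -0.34), as did 62 of the 68 members and 55.7% of all genes. All 15 were lowest in mutant-labelled replicate 2, as were 60 of the 68 members and 25.6% of all genes. In replicate 1, 6 of them were above every control, as were 18 of the 68 members and 26.5% of all genes.

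Of the 35 large subunit genes, 31 had no value of 0. Of these 31, 28 had a negative log2 fold change (median -0.30), as did 62 of the 68 members and 55.7% of all genes. Rpl22, an RNA-binding protein needed for T cell development, was at 147, 245 and 237 FPKM in the controls, against 133 and 76.8 FPKM in the mutant-labelled libraries. The groups did not overlap, though control replicate 1 was near mutant-labelled replicate 1 (log2 fold change -1.01, SE 0.36, limma, unadjusted p = 0.024, adjusted p = 0.505). Rpl37a, a small zinc-binding protein, was at 6480, 2901 and 3267 FPKM against 2556 and 1302 FPKM. Control replicate 1 stood at 2.11 times the geometric mean of the other 2 controls, and the log2 fold change of -1.11 (SE 0.46) did not pass (limma, unadjusted p = 0.0424, adjusted p = 0.569).

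Rpl4, whose long loop lines the peptide tunnel, was at 3064, 4875 and 1982 FPKM in the controls, against 1858 and 1651 FPKM in the mutant-labelled libraries. Control replicate 3 was close to both of them (log2 fold change -0.82, limma, adjusted p = 0.623). Rpl23a, at the tunnel exit, was at 1315, 1882 and 1668 FPKM against 1262 and 874 FPKM. Rpl28 was at 1081, 1125 and 1435 FPKM against 1031 and 647 FPKM. Rpl13 was tight in the controls, at 6457, 6350 and 6214 FPKM, and was at 5874 and 3699 FPKM. In these 4 genes every control was above both mutant-labelled libraries, and replicate 2 was the lower of the 2.

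Rpl35 and Rpl36 were among the most abundant large subunit genes. Rpl35, another tunnel exit protein, was at 5391, 5226 and 6174 FPKM in the controls, against 6188 and 3157 FPKM in the mutant-labelled libraries. Rpl36 was at 4653, 5395 and 8126 FPKM against 4997 and 2486 FPKM. Only replicate 2 left the range of the controls downward in both genes, and without it the log2 fold change of Rpl35 was 0.15. Of the 6 tunnel exit genes with a row (Rpl17, Rpl19, Rpl23a, Rpl31, Rpl35 and Rpl39), all were below every control in replicate 2, as were 61 of the 68 members and 33.4% of all genes. In replicate 1 this held for 1 of them, Rpl23a, for 12 of the 68 members and for 28.6% of all genes.

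Rpl5 and Rpl11 join in the particle that carries the smallest large-subunit ribosomal RNA, and when free they bind MDM2, the ubiquitin ligase of p53. Rpl5 was at 820, 367 and 392 FPKM in the controls, with 842 and 314 FPKM in the mutant-labelled libraries. Control replicate 1 and mutant-labelled replicate 1 were both about as high, so the spread did not follow the groups. Rpl11 was at 1862, 2306 and 2394 FPKM against 2221 and 1330 FPKM. The log2 fold changes of 0.068 (SE 0.51) for Rpl5 and -0.34 (SE 0.32) for Rpl11 did not pass (limma, adjusted p = 0.98 and 0.787). Rpl5 turned to -0.64 without mutant-labelled replicate 1, to -0.14 without control replicate 2 and to -0.094 without control replicate 3, and Rpl11 to 0.031 without mutant-labelled replicate 2.

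The P stalk recruits the translation factors that bind the ribosome, with Rplp0 as its base and Rplp1 and Rplp2 as its arms. Rplp0 was at 2701, 3174 and 3109 FPKM in the controls, with 2570 and 2647 FPKM in the mutant-labelled libraries, a small difference with no overlap. Rplp1 was at 3341, 4909 and 5137 FPKM against 4116 and 2220 FPKM. Rplp2 was at 2070, 2969 and 3031 FPKM against 3084 and 1412 FPKM. In replicate 2 the base was at 88.4% of the control mean and the arms were at 49.7% and 52.5%, the arms having coding lengths of 342 and 345 bases and the base 951 bases. The stalk proteins did not pass (limma, adjusted p = 0.862, 0.719 and 0.83 for Rplp0, Rplp1 and Rplp2).

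Variant paralogs were compared with their canonical partners inside each library, where scaling cancels. Rpl22l1 was at 639, 546 and 866 FPKM in the controls, against 604 and 286 FPKM in the mutant-labelled libraries, and so stood above Rpl22 in every library. The ratio of Rpl22l1 to Rpl22 was 4.35, 2.22 and 3.66 in the controls and 4.56 and 3.72 in the mutant-labelled libraries (exact permutation test of the log2 ratio, two-sided p = 0.4, taken as 2 times the smaller one-sided p). Both paralogs were low in replicate 2, and their ratio overlapped between groups.

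Rpl36al, an intronless copy of X-linked Rpl36a, was at 578, 693 and 753 FPKM in the controls, against 847 and 494 FPKM in the mutant-labelled libraries. Rpl36a was at 1661, 1988 and 2055 FPKM against 1848 and 962 FPKM. The ratio of Rpl36al to Rpl36a was 0.348, 0.349 and 0.366 in the controls and 0.458 and 0.513 in the mutant-labelled libraries. The ratio was thus nearly constant in controls and higher in both mutant-labelled libraries, 1.37-fold. Both genes have a coding length of 318 bases. Rps4l was at 24.9, 7.57 and 38.8 FPKM in the controls, against 43.5 and 38.5 FPKM, and its ratio to Rps4x was 0.0211, 0.00505 and 0.0224 against 0.038 and 0.0389. With 3 against 2 libraries the smallest exact permutation p, taken as 2 times the smaller one-sided p, is 0.2. Both ratios reached it, with 0.3 after Benjamini-Hochberg adjustment over the 3 pairs. The design cannot pass the threshold on single values. The paralogs without a measured partner also did not pass. Rps27l, a p53 target, was at 452, 657 and 820 FPKM against 870 and 486 FPKM, and Rpl7l1, a nucleolar protein, at 89.8, 102 and 77.4 FPKM against 62.2 and 89.4 FPKM (limma, adjusted p = 0.976 and 0.836). The signs of both, and that of Rpl36al (log2 fold change -0.053), turned under some of the alternatives given in the closing section.

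Some members differed widely between libraries of the same group. Rps15a was at 74.7, 1054 and 1072 FPKM in the controls, with 112 and 61.8 FPKM in the mutant-labelled libraries. Control replicate 1 thus sat with the mutant-labelled libraries, 14.3-fold below the highest control, and the log2 fold change of -2.39 had an SE of 1.08 (limma, adjusted p = 0.606). Rpl23 was at 467, 523 and 1938 FPKM in the controls, against 596 and 382 FPKM, control replicate 3 standing apart. Rps21 was at 876, 1383 and 2615 FPKM against 1221 and 561 FPKM.

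Members listed at 0 showed the extreme of this. Rpl32 was listed at 0 in control replicate 3 and mutant-labelled replicate 1, and was at 6237, 7199 and 4103 FPKM in control replicates 1 and 2 and mutant-labelled replicate 2. A gene thus stood at 0 in one library and among the most abundant members in another of the same group. Rpl41, the shortest ribosomal protein, was listed at 0 in control replicate 1 and was at 7058 and 7733 FPKM in the other controls and 7255 and 3509 FPKM in the mutant-labelled libraries. Rpl12 was listed at 0 in control replicate 3, and was at 725 and 1179 FPKM in the other controls and 769 and 553 FPKM in the mutant-labelled libraries. A value of 0 for a gene of this kind can be a failed estimate, so no fold is given. Rpl41 and Rpl12 were lower in mutant-labelled replicate 2 than in replicate 1.

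**Figure D4:**
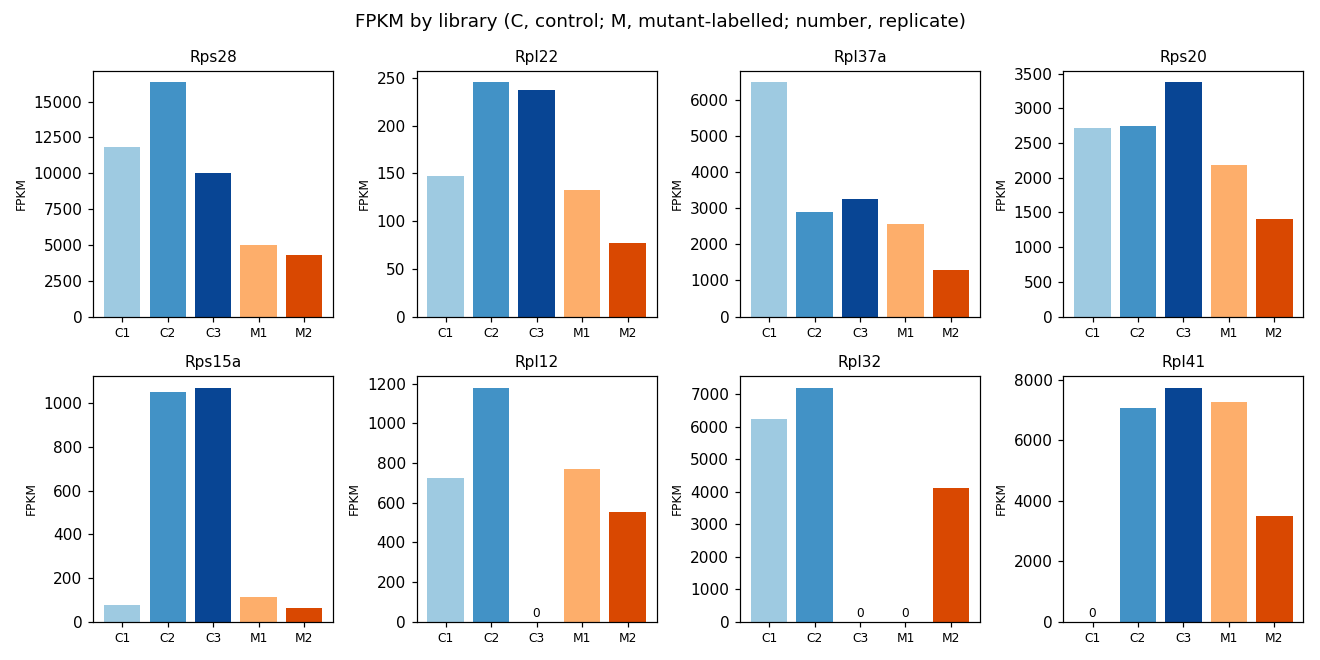
FPKM by library, as bars from 0, for the 4 members with an unadjusted p under 0.05 (Rps28, Rpl22, Rpl37a and Rps20) and for 4 with values that switch within a group (Rps15a, Rpl12, Rpl32 and Rpl41). Rps28 is at 5020 and 4315 FPKM in the mutant-labelled libraries and at 10004 FPKM or more in controls, while Rpl32 stands at 6237 and 7199 FPKM in control replicates 1 and 2 but is listed at 0 in the third.

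Genes around the ribosome were described list by list. Fau, which encodes the small subunit protein eS30 fused to a ubiquitin-like domain, was at 2843, 3146 and 3268 FPKM in the controls, against 2700 and 1894 FPKM in the mutant-labelled libraries, below every control in both (limma, adjusted p = 0.704). Gnb2l1, the scaffold protein RACK1 of the small subunit, was listed at 0 in control replicates 1 and 2 and mutant-labelled replicate 1, and was at 530 and 478 FPKM in control replicate 3 and mutant-labelled replicate 2. Of 15 other terminal oligopyrimidine mRNAs, 13 were tested and 0 had an unadjusted p under 0.05 (limma), against 8.45% of all genes. Of these 13, 11 had a negative log2 fold change, against 55.7% of all genes, and the median of the 13 was -0.18. Their median log2 ratios were 0.038 and -0.32 in mutant-labelled replicates 1 and 2, where the ribosomal protein genes had 0.037 and -0.66. Eef1a1, the factor that brings aminoacyl-tRNA to the ribosome, was at 3874, 4373 and 4598 FPKM in the controls, against 3283 and 3419 FPKM, below every control in both mutant-labelled libraries to a similar extent. Of the members whose introns carry small nucleolar RNAs, 17 had no value of 0. Of these 17, 15 had a negative log2 fold change (median -0.18), as did 62 of the 68 members and 55.7% of all genes.

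Ribosome assembly factors had log2 fold changes of both signs. Of all genes, 55.7% had a negative log2 fold change and 8.45% an unadjusted p under 0.05 (limma), the shares to set beside the counts below. Of 54 assembly factors tested, 52 had no value of 0, with 28 negative and 24 positive log2 fold changes, a median of -0.042 and 0 at an unadjusted p under 0.05 (limma). Their median log2 ratios were 0.064 and -0.24 in mutant-labelled replicates 1 and 2, against 0.0027 and -0.16 over all genes tested with no value of 0. RNA polymerase I genes, which transcribe ribosomal RNA, had 6 negative and 6 positive values of 12 tested (median 0.026), with 0 at an unadjusted p under 0.05 (limma). Chaperones dedicated to single ribosomal proteins had a median of -0.066 over 7 genes with no value of 0, and 0 at an unadjusted p under 0.05 (limma). The 12 mTOR and oligopyrimidine regulators had a median of 0.12. Of these 12, 1 had an unadjusted p under 0.05 (limma), against 8.45% of all genes, so the count is near that share. The 1 gene was Rheb, the GTPase that activates mTOR complexes, at 42.5, 57.8 and 54.9 FPKM in the controls, against 232 and 89.8 FPKM in the mutant-labelled libraries (log2 fold change 1.48, SE 0.43, limma, adjusted p = 0.439). Rheb was above every control in both, as were 10.2% of all genes, and higher in replicate 1 than in replicate 2.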

How the data were processed

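RNA-seq of sorted HSCs was deposited as 1 table of FPKM per gene symbol, the unit being in the deposited table's name. The 5 columns were matched to samples by their titles. Per the submitters' processing notes the build was mm9 and the tools TopHat and edgeR, with no role, order or version. Annotation, multi-mapping rule and filters: not given in the sources used here. Total reads are unknown, so no counting interval is given. FPKM is relative to the library total, so very abundant genes lower the rest.

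Of all genes, those whose mean reached 1 FPKM entered the test, run on log2(FPKM + 1) in limma (version 3.58.1, under R 4.3.3; eBayes with trend, group only, two-sided, Benjamini-Hochberg over all 10570 genes, threshold 0.05). The same fit was run on simulated independent genes with large changes, as a check of the code. That run does not show how the fit performs on small changes or with a deviating library. The log2(FPKM + 1) scale understates changes of low genes. Ratios per library used log2 FPKM without a pseudocount. Coding lengths are the longest in GENCODE vM21, used for length only. Promoter windows are from RefSeq GRCm38.p6, a later build than mm9. Python 3.11.15, pandas 2.3.3, scipy 1.17.1 and matplotlib 3.10.9 were used. Members and gene lists were chosen with earlier results of these data known. Some genes are not reported here. Named members were those at 0, those at an unadjusted p under 0.05, the 10 most abundant of those never at 0, up to 10 per direction with non-overlapping groups, paralogs with partners, Rpl5, Rpl11, Rps14 and Rps19. Others (Rps24, Rpl14, Rpl31, Rps6, Rps15a, Rpl23, Rps21, Rplp0, Rplp2 and Eef1a1) were chosen after their values were seen. Marker genes are given as sums and counts rather than singly, a departure from the naming rule, which also covered other lists' genes at an unadjusted p under 0.05. Alternatives covered the pseudocount, filter, scaling, variance model, replicate number and each library left out.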

Additional observations from a re-analysis of the deposited data

How the results depend on the processing

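The median log2 fold change of the 68 members stayed negative, between -0.34 and -0.17, under every alternative of pseudocount, filter, scaling, variance model and replicate block. The filters, and the variance models apart from array weights, leave each member's log2 fold change as in the main fit, so they could not move this median. Median-of-ratios scaling moved the median of all genes from -0.10 to 0.014, and the members' median relative to it was -0.18, against -0.19 as deposited. Leaving out 1 library gave -0.66 to 0.037, the positive value being without mutant-labelled replicate 2. Each such run without a mutant-labelled library assumes that the lone library varies like the controls. Groups did not overlap in 11 members as deposited, in 7 after median-of-ratios scaling, in 18 (17 lower and 1 higher, against 16.5% and 10.1% of all genes) with columns rescaled to the same FPKM sum, and in 25 (24 lower and 1 higher, against 14.2% and 12.2%) after quantile normalization. Leaving out a library gave 13 to 61, against 22.5% to 33.5% of all genes lower and 14.9% to 26.7% higher. The labels tie replicate numbers to no shared animal or batch, so the pairing rests on a number only; deviations of same-numbered libraries correlated at 0.035 and 0.0069. With the replicate number as a block 1 member was called, and the number of genes called rose from 2 to 22. Leaving out each library gave 0 to 1 called members, the 1 being without control replicate 3. For 26 named members, 425 of 442 values under alternatives kept their direction and their side of the threshold and 17 reversed, 13 of them where a library was left out. Under the filters, and the variance models apart from array weights, the direction was fixed in advance and only the side of the threshold could change. The replicate block gave the same log2 fold changes as leaving out control replicate 3, so these settings are not separate checks of direction. Rpl36al reversed to 0.075 with median-of-ratios scaling and 0.0303 with the replicate block (-0.44 to 0.34 without a library), Rpl5 to -0.094 with the replicate block (-0.64 to 0.78), and Rps27l to -0.074 with array weights (-0.36 to 0.48). Without a library, Rpl11 ranged from -0.71 to 0.031, Rpl35 from -0.82 to 0.15, Rpl7l1 from -0.52 to 0.0021, Rps18 from -0.59 to 0.057, Rps19 from -0.61 to 0.0502 and Rps29 from -1.18 to 0.064. The cause was not tested. Members without variant paralogs and Rps19bp1, with members listed at 0, or of coding length 450 or more, chosen after seeing the data, kept a negative median. Total reads are unknown, so counting error could not be set beside any value.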
